A study of Mus musculus with 6 samples.

Results

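The oxidative stress response was followed through 10 genes, Hmox1, Nqo1, Gclc, Gclm, Srxn1, Txnrd1, Sod1, Sod2, Sod3 and Cat. The samples were lung of WT mice and of mice with a transgene for T-bet expression in T cells. The 10 genes were a list by name, read through every non-control probe whose accession matched one of these symbols, and all 10 were found, on 12 probes, among 16358 genes named on the array. Srxn1 has 3 probes and the other genes have 1 each. All 12 probes were well above background on all 6 arrays, none was saturated, and all 10 genes were among the 12968 tested.

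Total RNA of lung from C57BL/6 mice was hybridised with a single dye to 6 arrays, 2 for each of 3 groups. WT mice carry no transgene, and the other groups are labelled hCD2-T-bet tg/wt and hCD2-T-bet tg/tg, after a transgene in which human CD2 sequences drive excess T-bet in T cells. The product of Tbx21, T-bet is a master regulator of T helper 1 cells, and the series relates its excess to pulmonary alveolar proteinosis, in which surfactant fills the air spaces. The labels give no age and no sex, they do not say how many animals an array stands for, and the transgene acts in T cells whereas the RNA is that of lung tissue, so that fewer cells of a type and less RNA per cell cannot be told apart.

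Reactive oxygen species are met in layers. Superoxide dismutases turn superoxide into hydrogen peroxide, which catalase splits directly and which peroxidases and peroxiredoxins remove with electrons from glutathione and thioredoxin. Many of these enzymes are switched on by NRF2, a transcription factor that KEAP1 holds at a low level until oxidants or electrophiles modify KEAP1, and that binds antioxidant response elements in the promoters and enhancers of its targets. Hmox1, Nqo1, Gclc, Gclm, Srxn1 and Txnrd1 are textbook NRF2 targets, whereas Sod2 is also induced by inflammatory cytokines and Sod3 is the secreted form found in the matrix around airways and vessels.

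RefSeq promoter windows on build GRCm38.p6, 250 bases before to 50 after each start site, were at hand for 7 of the 10 genes, in 9 windows, and Hmox1, Gclc and Sod3 had none. A core antioxidant response element, TGACNNNGC on either strand, stood in 4 of the 9 windows, 1 each of Gclm, Srxn1, Txnrd1 and Sod1, against 12.4% of all 32851 windows of the same 300 bases. The AP-1 motif TGANTCA, read on both strands, stood in 1 of the 9, that of Srxn1, which holds it at 2 places, against 7.81% of all windows. As spelled here, the 2 motifs can overlap in other promoters and did not in these. The AP-1 motif of Srxn1 nearer to the start site is followed by GC. It thus reads as the element core but for a G in place of the C of TGAC. Looser spellings of the element were not searched. A match of letters is a description and not a bound site. The bases upstream of the start site are shown for these 4 genes because they carry the motif while their transcripts went different ways in tg/tg lung, Srxn1 and Txnrd1 up and Gclm and Sod1 down. Capitals mark the element core, which reads on the minus strand, in Gclm, Txnrd1 and Sod1 and the pair of AP-1 motifs in Srxn1, whose element core lies at base 29 after the start site and so outside the stretch shown. The stretches are chr2:152105274-152105523 for Srxn1, chr10:82858956-82859205 for the middle one of 3 windows of Txnrd1, chr3:122245307-122245556 for Gclm and chr16:90220512-90220761 for Sod1, all on the plus strand.
Srxn1: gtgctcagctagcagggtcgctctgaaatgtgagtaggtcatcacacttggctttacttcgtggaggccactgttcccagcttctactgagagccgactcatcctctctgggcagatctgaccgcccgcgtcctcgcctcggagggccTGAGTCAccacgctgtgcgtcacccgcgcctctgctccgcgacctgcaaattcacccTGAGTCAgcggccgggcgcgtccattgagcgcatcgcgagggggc
Txnrd1: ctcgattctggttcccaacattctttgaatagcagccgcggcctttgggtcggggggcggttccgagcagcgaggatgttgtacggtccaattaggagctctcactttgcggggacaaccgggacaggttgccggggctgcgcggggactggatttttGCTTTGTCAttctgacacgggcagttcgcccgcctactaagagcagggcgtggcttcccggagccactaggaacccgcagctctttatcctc
Gclm: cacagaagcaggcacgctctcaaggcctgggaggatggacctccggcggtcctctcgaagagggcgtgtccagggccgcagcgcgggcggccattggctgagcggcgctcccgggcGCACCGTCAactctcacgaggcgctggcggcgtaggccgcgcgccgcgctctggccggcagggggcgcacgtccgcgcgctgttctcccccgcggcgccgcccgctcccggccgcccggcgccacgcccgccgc
Sod1: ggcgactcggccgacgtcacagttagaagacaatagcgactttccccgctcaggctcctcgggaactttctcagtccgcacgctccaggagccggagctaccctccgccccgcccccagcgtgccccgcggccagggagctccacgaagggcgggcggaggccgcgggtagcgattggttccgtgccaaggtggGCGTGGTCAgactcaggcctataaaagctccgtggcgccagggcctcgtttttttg

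Levels are given as log2 of the background-subtracted signal over the 75th percentile of that signal on the same array, so that a level of 0 lies at that percentile, and a difference of 1 is a doubling. They are compared for 1 gene across arrays and never between genes, since probes differ in brightness. The 75th percentile lay between 794 and 1204 intensity units, and the share of probes well above background was 62.0% to 66.8%. Tbx21 followed the labels on every array. It read -0.70 and -0.71 on the WT arrays, 1.30 and 1.34 on those of tg/wt, and 3.25 and 3.26 on those of tg/tg. The alveolar type 2 markers of lung were all well above background on every array. Slide 1 (scan 1) carried 4 arrays, those of WT and tg/tg, and slide 2 (scan 2) carried both tg/wt arrays, so in any comparison with tg/wt the genotype and the slide cannot be told apart. The arrays are not stated to come from separate animals, and the p-values measure the spread between arrays, which may be technical.

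In tg/tg lung the 10 genes split into a rising and a falling group of nearly equal size. Hmox1 rose 8.26-fold, Sod2 2.60-fold, Txnrd1 1.47-fold and Srxn1 1.37-fold over WT, while Nqo1 fell 3.29-fold, Cat 3.05-fold, Sod3 2.44-fold, Sod1 1.72-fold and Gclm 1.21-fold. Gclc, the last of the 10, did not pass the test. Of the 10 genes 4 were called higher and 5 lower in tg/tg than in WT (limma, Benjamini-Hochberg adjusted p under 0.05 over all 12968 genes). Among all genes tested 74.7% were called in this comparison, 33.8% higher and 40.8% lower, so 9 calls of 10 stand against a background in which most genes were called. For 9 of the 10 the tg/tg and WT arrays did not overlap, as for 87.9% of all genes. The median log2 difference over the 10 genes was -0.16, against -0.05 over all genes tested, and the median size of the difference was 1.04, against 0.42 over all genes tested. The 10 genes were chosen with earlier results of these data known, so these contrasts are descriptions only.

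**Figure D1:**
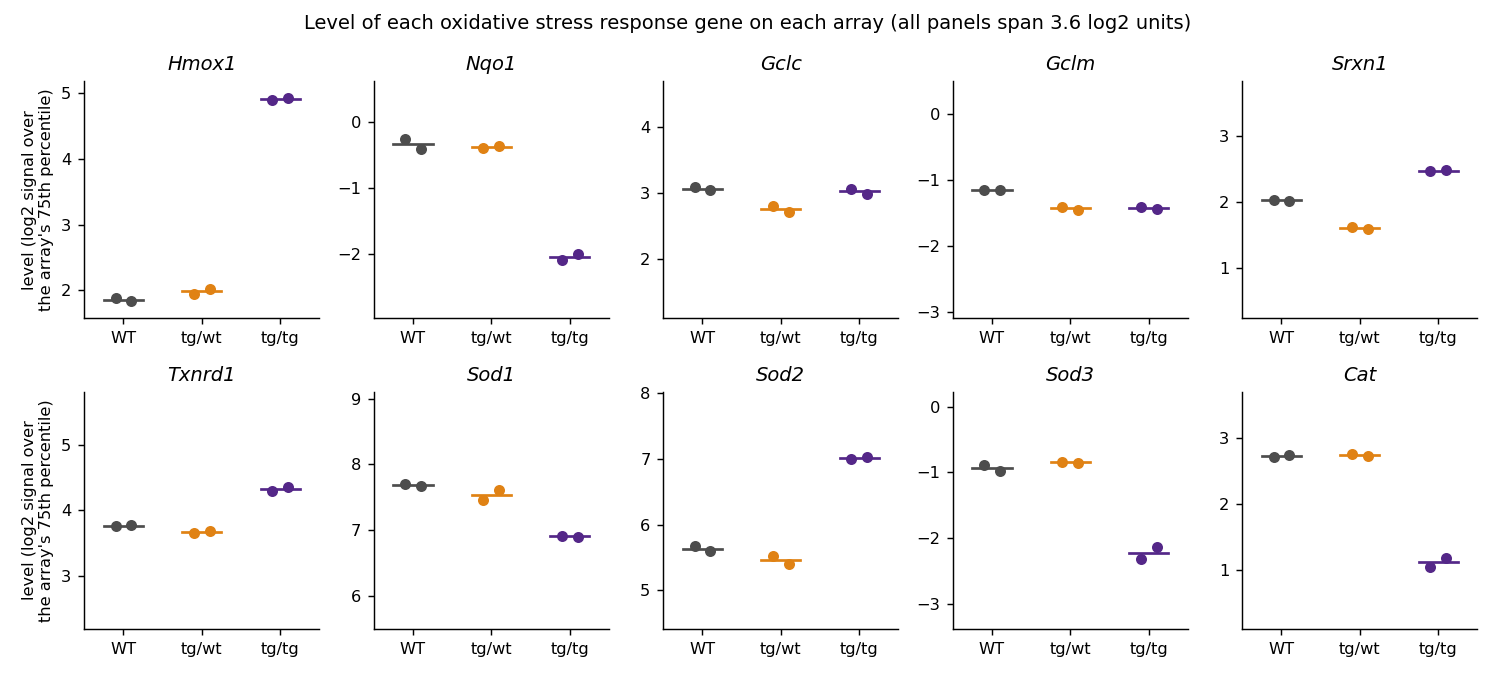
Level of each of the 10 genes on each of the 6 arrays, as log2 signal over the array's 75th percentile (vertical axis, each panel spanning the same range of log2 units), with points for arrays, horizontal bars for group means and the 3 genotypes side by side. The tg/tg arrays stand above both other groups for Hmox1, Srxn1, Txnrd1 and Sod2 and below both for Nqo1, Sod1, Sod3 and Cat, while the tg/tg arrays of Gclc lie across the WT range and those of Gclm overlap with tg/wt.

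Hmox1 encodes heme oxygenase 1, the inducible enzyme that opens the haem ring to release iron, carbon monoxide and biliverdin. It read 1.88 and 1.84 on the WT arrays, 1.95 and 2.03 on those of tg/wt, and 4.89 and 4.92 on those of tg/tg. Both tg/tg arrays were far above the other 4, and the tg/wt arrays lay narrowly above the WT arrays. In signal units the tg/tg arrays read 23487 and 30413 and the WT arrays 3494 and 3442. The rise over WT was 3.05 on the log2 scale (SE 0.0432, limma adjusted p = 1.33e-06) and ranked 257 among the rises of 12968 genes. The difference between tg/wt and WT was 0.13 with a 95% interval of 0.02 to 0.24 and did not pass (adjusted p = 0.0851). It passed with quantile normalization (adjusted p = 0.0461) and with variance moderation by an intensity trend (0.0377), at 0.15 and 0.13.

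Nqo1 encodes NAD(P)H quinone dehydrogenase 1, which reduces quinones in a single step and is the classical readout of NRF2 activity. It moved the other way and read -0.25 and -0.40 on the WT arrays, -0.39 and -0.36 on those of tg/wt, and -2.09 and -1.99 on those of tg/tg. Both tg/tg arrays were below all others, and the tg/wt values lay within the WT range. Nqo1 fell by 1.72 in tg/tg against WT (SE 0.0665, limma adjusted p = 2.01e-05) and ranked 652 among the falls of the 12968 genes. The difference of tg/wt from WT was -0.05, with a 95% interval of -0.22 to 0.12.

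Gclc and Gclm encode the catalytic and the modifier subunit of glutamate-cysteine ligase, the rate-limiting enzyme of glutathione synthesis. Gclc read 3.09 and 3.05 on the WT arrays, 2.81 and 2.71 on those of tg/wt, and 3.06 and 2.996 on those of tg/tg. Its tg/tg arrays overlapped with WT, at a difference of -0.04 (95% interval -0.17 to 0.09, adjusted p = 0.498), and only its tg/wt arrays stood apart, 0.31 lower than WT on the log2 scale (SE 0.0503, limma adjusted p = 0.0153). Gclm read -1.15 and -1.14 on the WT arrays, -1.41 and -1.45 on those of tg/wt, and -1.40 and -1.44 on those of tg/tg. It was lower in both transgenic groups than in WT, by about the same amount: it fell by 0.28 in tg/wt (SE 0.0351, adjusted p = 0.00765) and by 0.27 in tg/tg (adjusted p = 0.00148). Between tg/tg and tg/wt it differed by 0.01, with a 95% interval of -0.09 to 0.10.

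Srxn1 encodes sulfiredoxin 1, which repairs over-oxidised peroxiredoxins, and Txnrd1 the cytosolic thioredoxin reductase that recharges thioredoxin with electrons from NADPH. Srxn1, shown above with its AP-1 motifs, read 2.03 and 2.01 on the WT arrays, 1.62 and 1.59 on those of tg/wt, and 2.47 and 2.48 on those of tg/tg. The 3 groups did not overlap, and the order was tg/wt, WT, tg/tg, not the order of the Tbx21 level. Srxn1 fell by 0.42 in tg/wt against WT (SE 0.0333, limma adjusted p = 0.00232) and rose by 0.45 in tg/tg against WT (adjusted p = 1.87e-04). Txnrd1 read 3.76 and 3.77 on the WT arrays, 3.65 and 3.68 on those of tg/wt, and 4.29 and 4.35 on those of tg/tg. It rose by 0.55 in tg/tg against WT (SE 0.0380, adjusted p = 1.46e-04), and the difference of -0.10 in tg/wt did not pass (adjusted p = 0.111).

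The 3 probes of Srxn1 gave the same order of groups and different sizes. The brightest, which represents the gene, is A_52_P297032. On A_52_P593200 the gene read -1.79 and -1.58 on the WT arrays, -2.11 and -2.28 on those of tg/wt, and -0.96 and -0.76 on those of tg/tg. On A_51_P330125 it read, in the same order, -1.90 and -1.86, -2.26 and -2.31, and -1.19 and -1.03. In each case the tg/wt arrays were lowest and the tg/tg arrays highest, without overlap. In a fit of all 27514 probes above background on at least 2 arrays, added after the data were seen, the rise in tg/tg against WT was 1.77-fold and 1.71-fold on these dimmer probes and 1.37-fold on the brightest, and the fall in tg/wt against WT was 1.42-fold, 1.32-fold and 1.34-fold, with adjusted p = 0.0456 as the highest of the 6.

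**Figure D2:**
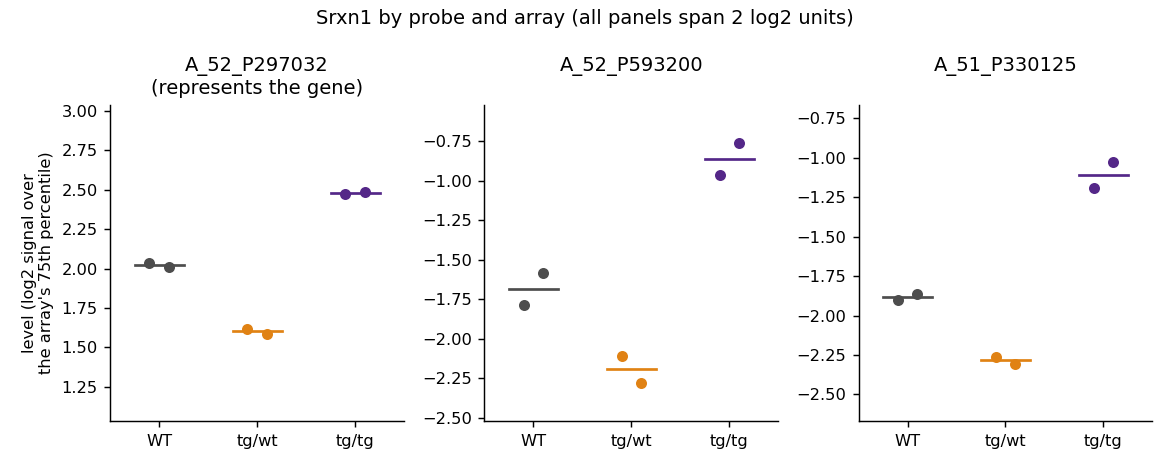
Level of Srxn1 (vertical axis, log2 signal over the array's 75th percentile, each panel spanning the same range) on each array for each of its 3 probes, with points for arrays and bars for group means. All 3 probes show tg/wt below WT and tg/tg above WT, and the rise over WT is smallest, 1.37-fold, on the brightest probe.

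The superoxide dismutases did not move together in tg/tg lung. Sod1, the copper-zinc enzyme of the cytosol, read 7.71 and 7.68 on the WT arrays, 7.47 and 7.60 on those of tg/wt, and 6.92 and 6.90 on those of tg/tg. Sod2, the manganese enzyme of mitochondria, read 5.67 and 5.60 on the WT arrays, 5.53 and 5.40 on those of tg/wt, and 6.99 and 7.03 on those of tg/tg. Sod3, the extracellular enzyme, read -0.89 and -0.98 on the WT arrays, -0.84 and -0.85 on those of tg/wt, and -2.31 and -2.14 on those of tg/tg. For all 3 the tg/tg arrays stood outside the range of the other 4, above it for Sod2 and below it for Sod1 and Sod3. Against WT, Sod2 rose by 1.38 in tg/tg (SE 0.0577, limma adjusted p = 2.59e-05). Sod1 fell by 0.78 (SE 0.0553, adjusted p = 1.61e-04). Sod3 fell by 1.29 (SE 0.0711, adjusted p = 6.73e-05).

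Cat encodes catalase, the peroxisomal enzyme that splits hydrogen peroxide into water and oxygen. It read 2.71 and 2.75 on the WT arrays, 2.76 and 2.73 on those of tg/wt, and 1.06 and 1.19 on those of tg/tg. The tg/wt arrays overlapped with WT (difference 0.01, 95% interval -0.13 to 0.16), and the tg/tg arrays were far below both. The fall in tg/tg against WT was by 1.61 on the log2 scale (SE 0.0551, limma adjusted p = 1.36e-05). Cat and Nqo1 thus had the largest falls of the 10 genes, and Hmox1 and Sod2 the largest rises, in this comparison.

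In tg/wt lung the log2 differences from WT ran from -0.42 for Srxn1 to 0.13 for Hmox1. Srxn1, Gclc and Gclm were called lower and the other 7 did not pass, against 27.9% of all genes called in this comparison, 13.4% higher and 14.6% lower. For 8 of the 10, all but Nqo1 and Cat, the arrays of the 2 groups did not overlap, as for 72.4% of all genes. With limma 0 of the 10 were called higher, and at an unadjusted p under 0.05 it was 1, Hmox1, with 6 lower. The share of all genes at an unadjusted p under 0.05 was not counted, and the 27.9% is no measure for it. For the genes that did not pass, the 95% intervals of the difference reach from -0.32 (Sod2) to 0.28 (Sod3). The calls in tg/wt rest on few arrays. Of the 3, 1 remained without WT 1 and 1 without WT 2, that of Srxn1, since Gclc (adjusted p = 0.0848 and 0.0623) and Gclm (0.0527 and 0.0532) ended, and Gclc also ended without tg/wt 2 (0.0674). An intensity trend raised the count to 6, and that of all genes from 3619 to 4479 of 12968.

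Between the transgenic groups 9 of the 10 genes passed the test. Of these, 5 were higher and 4 lower in tg/tg, against 74.2% of all genes called, 34.0% higher and 40.2% lower, and the arrays of 9 of the 10 did not overlap, as for 87.5% of all genes. Hmox1 was 7.54-fold, Sod2 2.92-fold, Srxn1 1.83-fold, Txnrd1 1.57-fold and Gclc 1.20-fold higher. Nqo1 was 3.18-fold, Cat 3.08-fold, Sod3 2.60-fold and Sod1 1.54-fold lower. This comparison shares the tg/tg arrays with the comparison against WT. Gclm was the gene that did not pass here (adjusted p = 0.877), and Gclc the one that did not pass against WT.

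**Figure D3:**
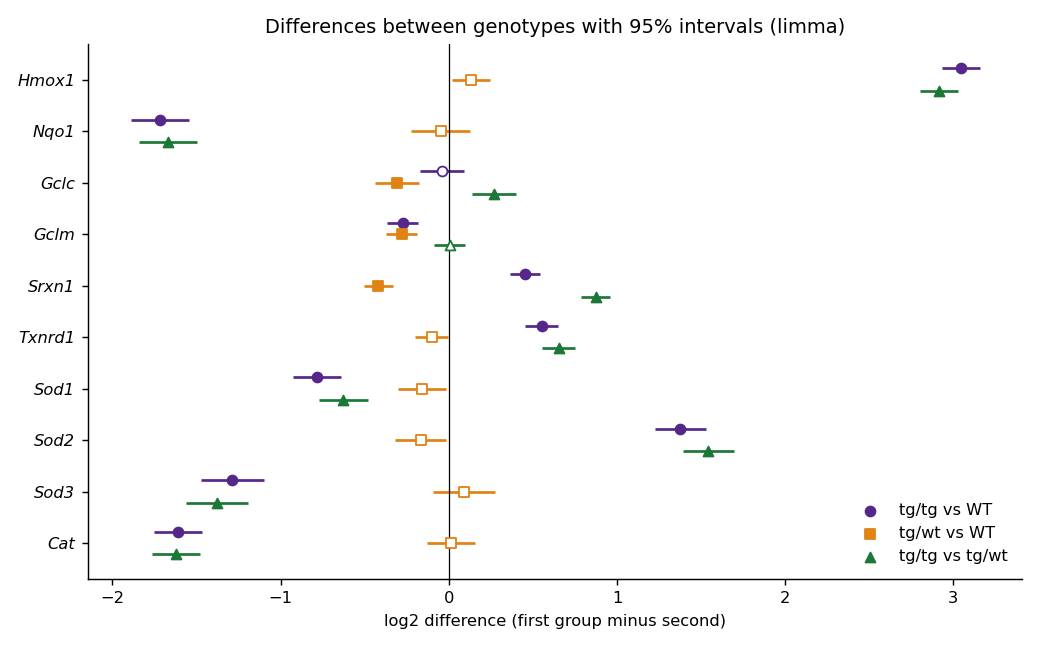
Log2 difference of each gene (horizontal axis) with its 95% interval for tg/tg against WT (circles), tg/wt against WT (squares) and tg/tg against tg/wt (triangles), with filled symbols for limma adjusted p under 0.05. Most tg/wt differences lie close to 0, between -0.42 and 0.13, whereas tg/tg against WT runs from -1.72 for Nqo1 to 3.05 for Hmox1.

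The other genes of the pathway were taken as 6 lists of 71 genes in all, of which 70 were tested and Pgd had no named probe here. In tg/tg against WT 25 of the 70 rose and 30 fell, with a median log2 difference of -0.05, the same as over all genes tested. Among all genes tested 33.8% were called higher and 40.8% lower, and the counts of each list below stand against these shares. The regulators moved little. Of 11, 4 rose and 2 fell, with a median of 0.06. Mafg, a small Maf partner of NRF2, was 1.29-fold higher and Cul3, the scaffold of the ligase that degrades NRF2, 1.25-fold higher. Park7, a redox-sensing protein that stabilises NRF2, was 1.42-fold lower and the related factor gene Nfe2l1 1.35-fold lower. Nfe2l2, which encodes NRF2 itself and is named here after its value was seen, read 4.19 and 4.18 on the WT arrays, 4.10 and 4.07 on those of tg/wt, and 4.18 and 4.17 on those of tg/tg. The level of its transcript in tg/tg lay at or just under that in WT, at a difference of -0.01 (SE 0.0326, limma adjusted p = 0.806).

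Of 17 genes of the glutathione system 6 rose and 9 fell in tg/tg against WT, with a median of -0.15. Slc7a11, the cystine importer that feeds glutathione synthesis, rose furthest. Its level was -0.53 and -0.63 on the tg/tg arrays, and it was not well above background on any WT or tg/wt array. Against WT its rise was at least 31.1-fold, the bound being set by the dimmest probes above background on the WT arrays. Slc7a11 entered the test through the tg/tg arrays alone, the group in which it was high. Its call is therefore no separate support for the rise. Glrx, a glutaredoxin that removes glutathione from proteins, was 5.28-fold higher, and Ggct, which degrades gamma-glutamyl peptides, 2.59-fold higher. Gpx2, an epithelial glutathione peroxidase, was 2.27-fold lower. The importer of cystine thus rose in lung in which Gclm was lower and Gclc did not pass the test.

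Of 15 genes of the thioredoxin and peroxiredoxin system 5 rose and 6 fell, with a median of -0.01. These counts are near the shares of all genes called, 33.8% higher and 40.8% lower. Prdx5, a peroxiredoxin of mitochondria and peroxisomes, was 2.66-fold higher and Msrb1, a methionine sulfoxide reductase, 1.84-fold higher. Txnrd3, the thioredoxin glutathione reductase best known from testis, was 2.38-fold lower and Msrb2, a mitochondrial methionine sulfoxide reductase, 2.12-fold lower. Haem breakdown and ferritin genes, the list nearest to Hmox1, rose in 6 of 8 cases with a median of 0.61. Hpx, the haem-binding plasma protein, was 3.68-fold higher. Biliverdin reductases, which turn the product of heme oxygenase into bilirubin, were higher too, Blvrb 2.10-fold and Blvra 1.66-fold. The ferritin light chain gene Ftl1 was 2.01-fold higher, and Slc40a1, which encodes the iron exporter ferroportin, fell by 0.60 against the direction of its list.

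Of 5 genes of NADPH supply G6pdx, the entry enzyme of the pentose phosphate pathway, was 1.70-fold higher, and Me1 (1.23-fold) and Idh1 (1.13-fold) were lower. Other NRF2 targets, mostly enzymes of detoxification, fell in 10 of 14 cases with a median of -0.86. Gsta3 (7.44-fold) and Gstm1 (4.54-fold), glutathione transferases, Aox1 (3.24-fold), an aldehyde oxidase, and Ephx1 (3.08-fold), the microsomal epoxide hydrolase, fell furthest, on the side of Nqo1. The 3 that rose against their list were the transporter genes Abcc4 (2.13-fold) and Abcc1 (1.32-fold) and the reductase gene Akr1b8 (1.54-fold). The glutathione transferases belong to families of similar genes, and how far their probes see other members was not tested.

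**Figure D4:**
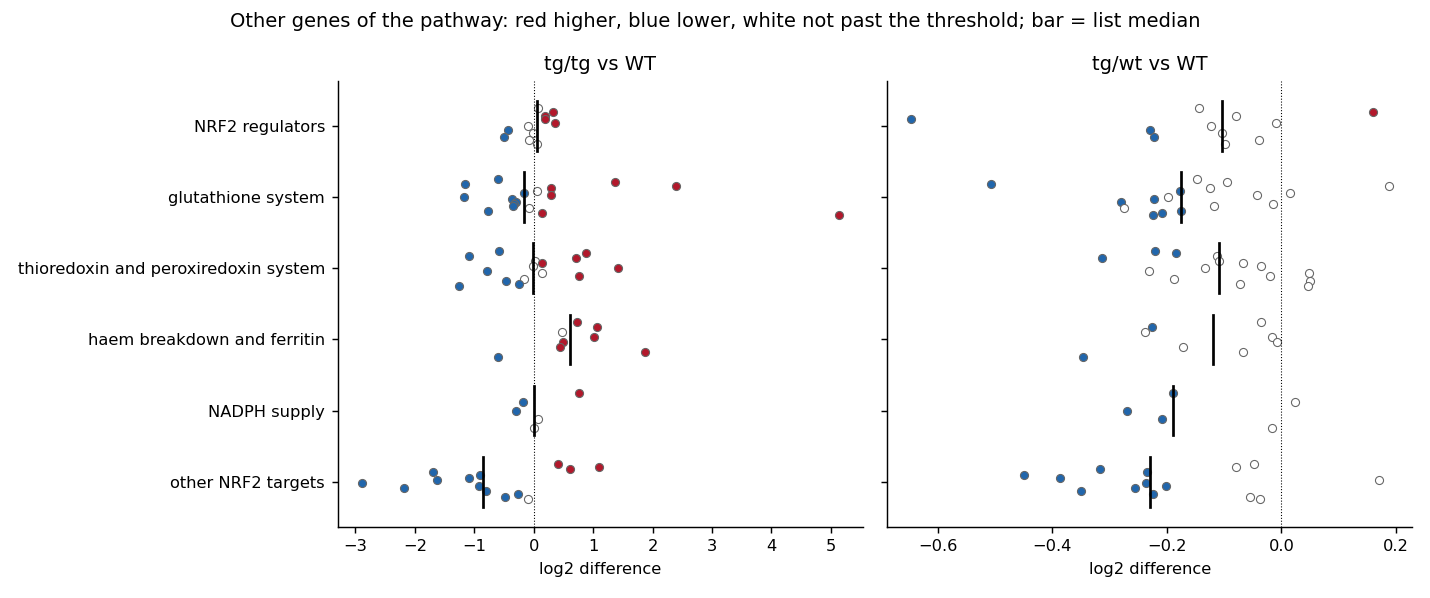
Log2 difference of each of the 70 other pathway genes by list, for tg/tg against WT (left) and tg/wt against WT (right, on a narrower horizontal scale), coloured red where higher, blue where lower and white where the test was not passed, with a vertical bar at each list's median. In tg/tg the haem and ferritin list lies mostly to the right, at a median of 0.61, and the other NRF2 targets mostly to the left, at -0.86. Slc7a11, the rightmost point of the left panel, is drawn at its measured difference although it was not well above background in WT.

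In tg/wt against WT the same 70 genes gave 28 calls, 27 of them lower, with a median of -0.14 against -0.005 over all genes tested. Among all genes 27.9% were called in this comparison, 13.4% higher and 14.6% lower. The higher one was Cul3 (1.12-fold). Other NRF2 targets fell in 9 of 14 cases, with a median of -0.23, and glutathione genes in 7 of 17, with a median of -0.18. Slc7a11 is among these 7 although it was below background in both groups, so its call has no fold. The differences were small, with Maff, a small Maf gene named after its value was seen, as the furthest at -0.65. The count fell to 2 without WT 1, 3 without WT 2, 6 without tg/wt 1 and 10 without tg/wt 2. Between tg/tg and tg/wt 31 of the 70 were higher and 25 lower, with a median of 0.03, against 34.0% higher and 40.2% lower among all genes.

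Markers of other cells of the lung moved between the same groups, and they are given as the sum of their linear signals in units of the array's 75th percentile. Such a sum is led by the markers with the brightest probes and is compared across arrays only. It can differ from the picture by gene, so the counts of markers stand beside it. The monocyte and interstitial macrophage markers rose in 8 of 8 tested cases in tg/tg against WT. Their sum was 13.1 to 13.7 in WT, 21.5 to 21.97 in tg/wt and 196 to 201 in tg/tg. T cell markers rose in 8 of 8, from 4.92 to 5.14 in WT and 9.66 to 9.73 in tg/wt to 45.4 to 46.1 in tg/tg. Neutrophil markers rose in 9 of 9 in tg/tg, at 56.7 to 58.0 in WT, 16.0 to 16.3 in tg/wt and 68.5 to 70.6 in tg/tg, with Ngp and Camp not well above background in tg/wt. The neutrophil sum was lowest in tg/wt without overlap. Of the 10 genes 4 were also lowest there without overlap, Gclc, Srxn1, Txnrd1 and Sod2, though Txnrd1 and Sod2 did not pass against WT. Among all genes the arrays did not overlap for 72.4% between tg/wt and WT and for 87.5% between tg/tg and tg/wt. The share of all genes lowest in tg/wt was not counted, and both tg/wt arrays lay on a slide of their own. A link between these genes and neutrophils was not tested.

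Most markers of endothelium, smooth muscle, airway, fat and heart muscle were lower in tg/tg than in WT, as were Nqo1, Sod1, Sod3, Cat and Gclm. Endothelial markers fell in 10 of 10 cases in tg/tg against WT, from 331 to 332 in WT and 311 to 322 in tg/wt to 148 to 154 in tg/tg. Smooth muscle and pericyte markers fell in 7 of 9, from 148 in WT and 157 in tg/wt to 74.4 to 76.2 in tg/tg. Airway markers fell in 7 of 7, from 848 to 862 in WT and 678 to 817 in tg/wt to 382 to 429 in tg/tg. Fat markers fell in 5 of 5, from 30.4 to 31.5 in WT to 3.77 to 3.78 in tg/tg, where Retn was not well above background, with 19.0 to 19.2 in tg/wt, and heart muscle markers in 8 of 8, from 216 to 220 in WT through 106 to 107 in tg/wt to 13.4 to 13.7 in tg/tg. In tg/wt against WT 4 of 5 fat, 8 of 8 heart muscle, 4 of 7 airway and 4 of 4 erythroid markers were lower. Of 10 endothelial markers 2 were higher and 1 lower, and of 9 smooth muscle and pericyte markers 3 were higher and 0 lower. Gclm was called lower in this comparison, whereas Cat, Nqo1, Sod1 and Sod3 did not pass the test. Of these 4, Sod1 was lower in tg/wt without overlap (-0.16, limma adjusted p = 0.0963, and 0.0489 with an intensity trend), while quantile normalization turned its difference to 0.019. In tg/tg against WT alveolar macrophage markers rose in 3 and fell in 7 of 10, with a median log2 difference of -1.51. Their sum was 110 to 112 in WT and 99.1 to 99.8 in tg/tg. Alveolar type 1 markers rose in 1 and fell in 4 of 5, from 344 to 345 in WT to 186 to 191 in tg/tg. Erythroid markers fell in 4 of 4, from 394 to 401 to 218 to 222. Alveolar type 2 markers rose in 3 and fell in 2 of 10, and their sum rose from 1061 to 1120 in WT to 1201 to 1355 in tg/tg, with Sftpc saturated. The part of these cells in the levels of the 10 genes was not tested.

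The genes whose profile over the 6 arrays came nearest to that of Hmox1 included Slc15a3 and Pilrb2, at root mean square distances of 0.0478 and 0.0512 log2 units after each gene was centred on its own mean. Their differences between tg/tg and WT were 3.01 and 3.12. Nearest to Nqo1 were Fhl1, Sema3c and Lmod1, at 0.0402, 0.0409 and 0.0454, with differences between tg/tg and WT of -1.71, -1.69 and -1.74. Lmod1 encodes leiomodin 1, a protein of smooth muscle. These are descriptions over 6 arrays that fall into 3 groups.

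**Figure D5:**
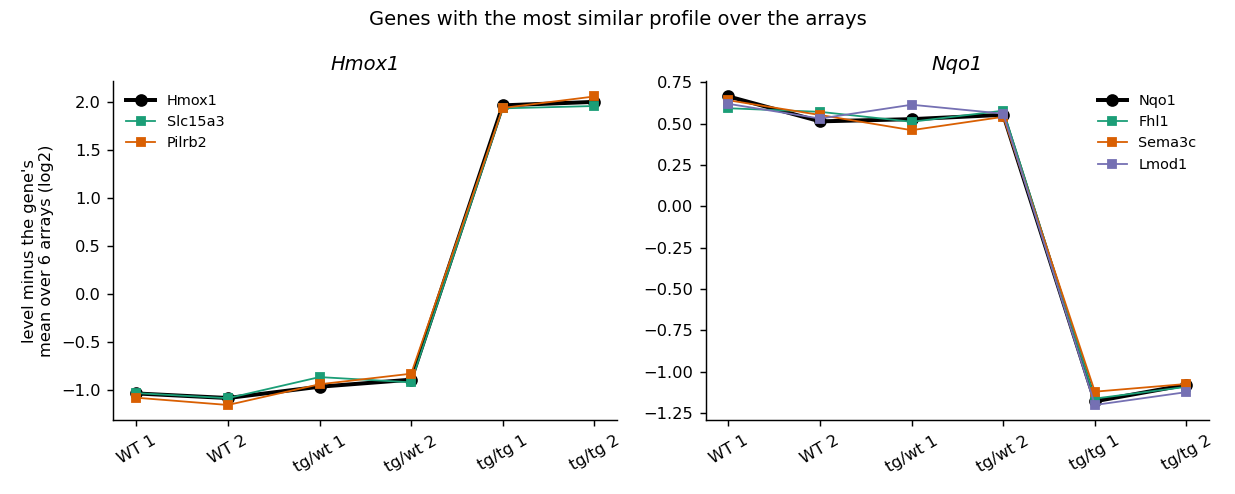
Level of Hmox1 (left) and Nqo1 (right) with Slc15a3 and Pilrb2, and Fhl1, Sema3c and Lmod1, in turn, over the 6 arrays (vertical axis, log2 level minus the gene's own mean). The lines of each panel nearly coincide, at root mean square distances of 0.0402 to 0.0512, with a step at the tg/tg arrays and little change between WT and tg/wt.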

How the data were processed

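Lung RNA of 3 genotypes was measured on 6 arrays, 2 per genotype. Per the labels' protocols, RNA was extracted on columns and its cRNA labelled with Cy3. Per the file headers, the deposited intensity values came from Agilent Feature Extraction 9.5.3.1, while the submitters' processing notes name version 9.1. The processed intensity is linear, background-subtracted and not scaled between arrays. The deposited series table matched the background-subtracted intensity of all 45018 features (relative tolerance 1e-04).

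Control spots and spots with outlier marks were left out, spots of a probe were averaged, and log2 intensity minus the array's 75th percentile was used. Accessions matched 22951 of 41174 probes to symbols (RefSeq, GRCm38.p6). Genes entered with a probe well above background on at least 2 arrays, the brightest probe representing a gene, and groups were fitted in limma 3.58.1 (R 4.3.3, data.table, version 1.17.8; lmFit, eBayes, 3 residual degrees of freedom, 95% intervals), two-sided. Number of arrays limits the precision. The fit was tested on simulated data. Gene names in the text follow the rule of all 10 genes, up to 4 called genes of each pathway list with the largest change in tg/tg against WT, and the 3 nearest profiles to the members with the largest rise and fall; genes that went against their list may be named, and others are marked. An item that the rule names is not reported here. Members and lists were chosen with earlier results of these data known. Alternatives were normexp (offset 50, on the median signal, local backgrounds over 2 times the array's median set to it), quantile normalization, scaling to probes above background, other filters, the mean of a gene's probes, an intensity trend, the series values, only the groups compared, a replicate block, and leaving out each array. Figures used Python 3.11.15 and matplotlib 3.10.9.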

Additional observations from a re-analysis of the deposited data

How the results depend on the processing

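The 9 calls among the 10 genes in tg/tg against WT, and the 9 against tg/wt, stood at 9 under all alternatives run, including each array left out (9 to 9), quantile normalization and normexp. The fit within slide 1 exists for tg/tg against WT alone, with 9 calls, and no fit within a slide can be made for tg/wt. For tg/wt against WT the 3 calls became 6 with an intensity trend and ranged from 1 to 3 without each array. The gene calls in tg/wt, 3619, became 2408 with no filter on dim probes and ranged from 1397 to 3472 without each array; without WT 1 they were 1397, without WT 2 1472, without tg/wt 1 1807 and without tg/wt 2 1464. The calls among other pathway genes in tg/wt, 28, became 18 with no filter, 17 with the replicate block and ranged from 2 to 25 without each array.

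The sign turned for 4 differences, none of them called in the fit reported. Sod1 in tg/wt against WT, at -0.16, was 0.019 with quantile normalization, and it was called lower with an intensity trend (adjusted p = 0.0489). The other 3 turned without single arrays, namely Nqo1 in tg/wt against WT (-0.124 to 0.026), Cat in tg/wt against WT (-0.0028 to 0.031) and Gclm in tg/tg against tg/wt (-0.013 to 0.026). Nqo1 turned without WT 1, Cat without WT 1 or tg/wt 1, and Gclm without tg/wt 2 or tg/tg 1. The replicate number shows no pairing, with correlations of same-numbered deviations of 0.13, -0.05 and -0.05; with it as a block 9447 genes were called in tg/tg against WT and no call among the 10 genes changed. Where an array is left out, the lone array of its group is assumed to vary like the others. Normalization moved the median of all genes by less than 0.1. The cause of these changes was not tested, beyond the fewer arrays fitted and, without a filter, the greater number of genes tested.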
